A study of Homo sapiens with 3 samples.

Results

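The caveolin genes CAV1, CAV2 and CAV3 and the cavin genes CAVIN1, CAVIN2 and CAVIN3 were examined for Fra-1 and Fra-2 binding in MDA-MB-231 cells, an established triple-negative, basal B breast cancer line grown in medium with serum. A peak was assigned to a gene when its centre lay in the gene body or within 100 kb of one of its transcription start sites (TSSs). This gave 15 of the 9998 Fra-1 peaks and 22 of the 13003 Fra-2 peaks, which fell into 24 distinct sites. The peaks came from chromatin immunoprecipitation followed by sequencing (ChIP-seq), with 1 peak list for the Fra-1 antibody and 1 for the Fra-2 antibody. The labels name no treatment of the cells and speak of 2 independent replicates for each antibody and for input DNA. The input was not analysed here. The lists carry no height, score or read count, so depth is unknown, no value has a spread between replicates, and no difference was tested. The 6 genes were chosen with earlier results of these data known, so counts are set beside those over all genes or all peaks as a description.

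Caveolae are small flask-shaped pits of the plasma membrane. Caveolins are the membrane proteins that build their wall, and cavins are cytosolic coat proteins that assemble on it. CAV1 is the main caveolin outside striated muscle, CAV2 pairs with it, and CAV3 is the muscle form. CAVIN1, formerly PTRF, is required for caveolae to form; CAVIN2, formerly SDPR, helps to shape them, and CAVIN3, formerly PRKCDBP, is a further coat protein. Caveolae buffer membrane tension and take part in signalling and uptake. Fra-1 and Fra-2 belong to the Fos family, and dimers of Fos and Jun proteins bind the AP-1 element, TGACTCA, which reads TGAGTCA on the other strand.

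The sequences of the shared sites nearest to the caveolin genes, and of the Fra-2 peak nearest to CAV1, are shown because they differ in whether they hold this element. Each is the plus strand of GRCh37, the assembly behind hg19, from the first to the last position of the peak, with exact AP-1 elements in capitals.
CAV1 downstream site, chr7:116217151-116217351, both lists: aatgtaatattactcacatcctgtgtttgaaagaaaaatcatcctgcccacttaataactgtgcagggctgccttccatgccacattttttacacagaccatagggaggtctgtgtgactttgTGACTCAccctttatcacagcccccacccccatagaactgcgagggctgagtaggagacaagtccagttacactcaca
CAV1 upstream site, chr7:116162551-116162651, Fra-2 list only: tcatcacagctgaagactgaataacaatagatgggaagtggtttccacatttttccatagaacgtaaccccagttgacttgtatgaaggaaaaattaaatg
CAV2 distal upstream site, chr7:115912151-115912351, both lists: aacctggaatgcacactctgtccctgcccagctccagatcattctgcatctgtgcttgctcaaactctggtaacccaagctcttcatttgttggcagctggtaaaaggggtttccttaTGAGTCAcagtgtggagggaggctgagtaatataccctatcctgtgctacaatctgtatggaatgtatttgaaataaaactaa
CAV2 first intronic site, chr7:115957451-115957701, both lists: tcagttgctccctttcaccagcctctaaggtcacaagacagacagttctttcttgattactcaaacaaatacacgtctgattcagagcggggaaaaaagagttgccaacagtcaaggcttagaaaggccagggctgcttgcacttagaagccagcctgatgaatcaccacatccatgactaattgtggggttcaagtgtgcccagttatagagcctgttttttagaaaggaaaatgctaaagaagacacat
CAV2 second intronic site, chr7:115967951-115968101, both lists: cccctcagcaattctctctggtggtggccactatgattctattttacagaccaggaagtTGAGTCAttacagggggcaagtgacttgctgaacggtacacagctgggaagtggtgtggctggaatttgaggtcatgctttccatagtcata
CAV2 last intronic site, chr7:116083151-116083401, Fra-1 edges: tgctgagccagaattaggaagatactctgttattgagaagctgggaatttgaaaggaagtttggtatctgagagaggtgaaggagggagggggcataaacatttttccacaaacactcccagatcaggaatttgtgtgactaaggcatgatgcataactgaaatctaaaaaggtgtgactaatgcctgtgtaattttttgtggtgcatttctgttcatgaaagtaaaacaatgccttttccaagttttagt
CAV3 first intronic site, chr3:8781851-8782101, both lists: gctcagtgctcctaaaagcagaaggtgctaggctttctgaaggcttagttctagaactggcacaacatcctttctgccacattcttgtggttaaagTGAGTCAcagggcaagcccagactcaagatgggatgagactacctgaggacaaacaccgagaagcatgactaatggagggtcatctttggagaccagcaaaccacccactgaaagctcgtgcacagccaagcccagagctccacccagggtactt
CAV3 second intronic site, chr3:8783301-8783501, Fra-1 edges: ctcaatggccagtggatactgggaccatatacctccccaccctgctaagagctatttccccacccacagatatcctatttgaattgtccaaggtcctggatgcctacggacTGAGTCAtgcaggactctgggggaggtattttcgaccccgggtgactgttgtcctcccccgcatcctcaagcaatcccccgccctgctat

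For the cavin genes, sites with the element are shown in the same way, among them the upstream site of CAVIN1, one of 2 sites of that gene that hold a pair.
CAVIN1 upstream site, chr17:40580351-40580551, both lists: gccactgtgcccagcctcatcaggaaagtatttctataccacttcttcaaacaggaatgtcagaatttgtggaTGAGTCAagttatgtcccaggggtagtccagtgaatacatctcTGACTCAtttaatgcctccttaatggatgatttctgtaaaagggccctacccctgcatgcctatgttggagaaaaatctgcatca
CAVIN1 intronic site near the TSS, chr17:40571801-40571951, Fra-2 list only: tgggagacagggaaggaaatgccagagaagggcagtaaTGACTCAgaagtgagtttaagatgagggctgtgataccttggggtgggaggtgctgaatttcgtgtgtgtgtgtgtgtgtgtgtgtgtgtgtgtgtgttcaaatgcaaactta
CAVIN1 deeper intronic site, chr17:40561651-40561801, Fra-2 list only: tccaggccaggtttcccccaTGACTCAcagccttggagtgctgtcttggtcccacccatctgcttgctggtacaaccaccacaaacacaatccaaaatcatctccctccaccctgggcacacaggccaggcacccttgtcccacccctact
CAVIN2 nearer upstream site, chr2:192731801-192732051, Fra-2 edges: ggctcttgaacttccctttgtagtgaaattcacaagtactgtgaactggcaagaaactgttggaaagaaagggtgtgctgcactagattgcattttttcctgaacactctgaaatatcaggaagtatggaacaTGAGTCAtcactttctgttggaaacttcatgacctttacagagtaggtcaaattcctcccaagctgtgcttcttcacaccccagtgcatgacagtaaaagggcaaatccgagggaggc
CAVIN2 farther upstream site, chr2:192759501-192759651, Fra-1 edges: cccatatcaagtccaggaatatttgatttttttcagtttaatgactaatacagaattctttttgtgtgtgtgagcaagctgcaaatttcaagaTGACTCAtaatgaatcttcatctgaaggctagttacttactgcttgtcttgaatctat
CAVIN3 upstream site, chr11:6343501-6343601, Fra-2 list only: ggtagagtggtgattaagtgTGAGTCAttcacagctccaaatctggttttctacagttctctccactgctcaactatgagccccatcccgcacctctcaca

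Peaks of both factors were in reach of 5 of the 6 genes, and CAVIN3 had a Fra-2 peak alone. Over all 20098 protein-coding genes, a Fra-1 peak was in such reach of 45.3%, a Fra-2 peak of 58.6% and peaks of both lists of 42.7%. CAV2 had the most peaks, with 7 of Fra-1 and 8 of Fra-2. Next came CAVIN1, with 4 Fra-1 and 7 Fra-2 peaks. CAVIN2 had 2 Fra-1 and 4 Fra-2 peaks, and CAV1 had 2 Fra-1 and 3 Fra-2 peaks. CAV3 had 2 peaks in each list, and CAVIN3 had no Fra-1 and 1 Fra-2 peak. Across all protein-coding genes the mean was 0.944 Fra-1 and 1.45 Fra-2 peaks. As many Fra-1 peaks as CAV2, or more, were in reach of 0.836% of protein-coding genes, and as many Fra-2 peaks of 1.77%. For CAVIN1 those shares were 6.18% and 2.72%. The body of CAV2 is long in the annotation, at 221 kb with 10 TSSs, and a long gene has more room for peaks. CAV1 and CAV2 lie side by side on chromosome 7, so both Fra-1 peaks and all 3 Fra-2 peaks of CAV1 were also counted for CAV2. Counted from its coding reference transcript alone, a setting chosen after the data were seen, CAV2 kept only these peaks of CAV1. Its place at the top therefore rests on its other annotated transcripts. By the main rule, as many peaks as CAV1, or more, were in reach of 23.3% of protein-coding genes for Fra-1 and 20.6% for Fra-2.

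**Figure D1:**
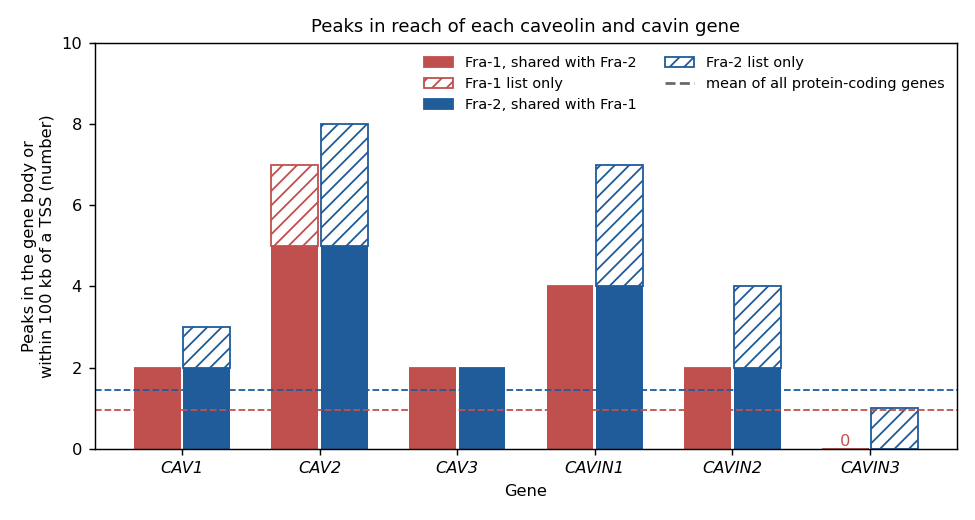
Number of Fra-1 (red) and Fra-2 (blue) peaks in the body or within 100 kb of a TSS of each gene; solid parts are peaks that share sequence with the other list, hatched parts those in a single list, and dashed lines the means over all protein-coding genes in the same colours. CAV2 has 7 Fra-1 and 8 Fra-2 peaks, and CAVIN3 has 0 and 1.

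None of the 15 Fra-1 and 22 Fra-2 peaks was centred within 1 kb of a TSS of the 6 genes. The share of all genes with a peak that near is not given here, so this is not read as a trait of the 6 genes. The nearest Fra-1 peak lay 5.18 kb from a TSS, at CAVIN1, and the nearest Fra-2 peak 1.79 kb away, at CAVIN3. In the gene body or within 10 kb of a TSS, 3 genes kept a Fra-1 peak (CAV2, CAV3 and CAVIN1), beside 16.3% of all protein-coding genes. In the same reach 5 genes had a Fra-2 peak, the same 3 with CAV1 and CAVIN3, beside 23.3% of all protein-coding genes. CAVIN2 had no peak of either list that near.

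**Figure D2:**
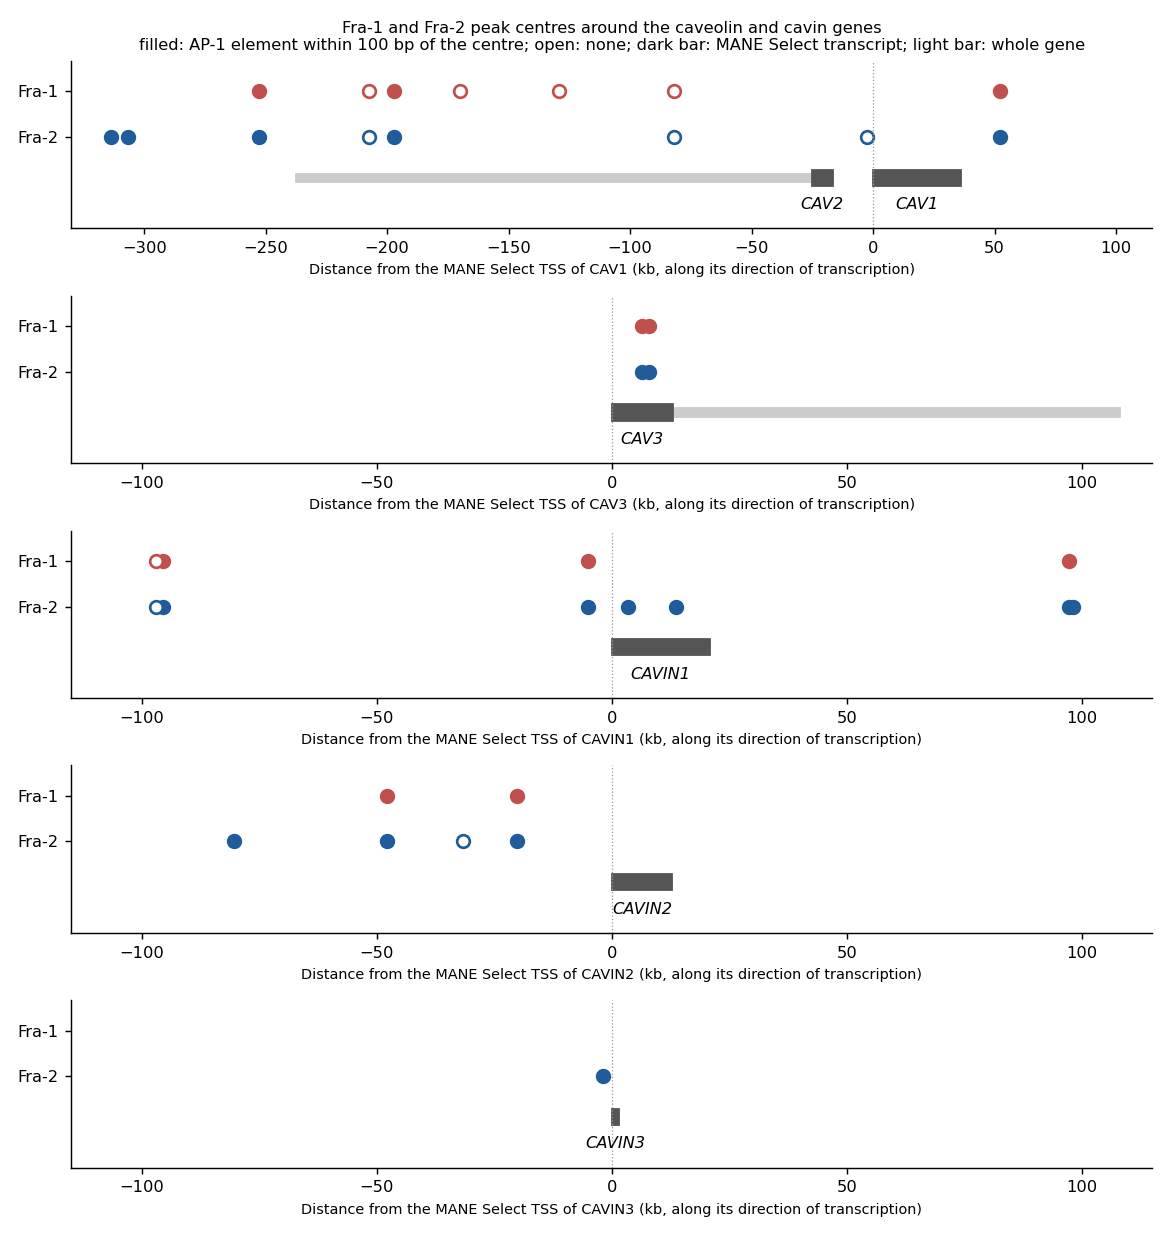
Centres of Fra-1 (red) and Fra-2 (blue) peaks around each gene, by distance in kb from the TSS of its reference (MANE Select) transcript, or from that of CAV1 for the pair on chromosome 7, with negative values upstream. Filled circles mark peaks with an AP-1 element within 100 bp of the centre and open circles those with none; most open circles lie along CAV2.

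At CAV1 (chromosome 7, 116165048 to 116201233, plus strand), the main caveolin outside striated muscle, no peak lay inside the gene. A site downstream of the gene, 50.9 kb from the nearest TSS of CAV1, had the same edges in both lists and was 200 bp wide. It lay in an intron of the long non-coding RNA gene COMETT and held 1 AP-1 element, 26 bp from the centre. Upstream, a Fra-2 peak of 100 bp lay 2.45 kb from a TSS of CAV1, with no Fra-1 peak over it. That peak had no exact element and 1 word that differs from it at a single base, TTACTCA, which starts 4 bases before the left edge of the peak. A further site in reach, 81.8 kb from a TSS of CAV1 for Fra-1 and 81.7 kb for Fra-2, lies in the annotated body of CAV2.

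CAV2 (chromosome 7, 115927434 to 116148595, plus strand), the partner of CAV1, had most of its peaks far upstream of its coding reference transcript. That transcript spans only 116139792 to 116148595, and no peak lay in it. The rest of the annotated body comes from other transcripts, and 3 of the 15 transcripts of the gene are annotated as coding. All 5 Fra-1 and 3 Fra-2 peaks in the body lay in introns. Reach counted from the coding reference transcript of each gene alone, a setting chosen after the data were seen, left 10 of the 15 Fra-1 peaks and 17 of the 22 Fra-2 peaks over the 6 genes. The peaks lost had all been counted for CAV2, and lay at -288 to -104 kb from the TSS of its coding reference transcript. A long non-coding RNA gene overlaps the same introns, so the peaks cannot be given to CAV2 by position alone.

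Of the CAV2 sites, the distal upstream one (15.2 kb from the nearest TSS, at -228 kb from the coding one) was 200 bp wide with the same edges in both lists and held 1 element. The second intronic site (38.1 kb from the nearest TSS, 150 bp) also had the same edges in both lists and held 1 element, 13 bp from the centre. By contrast the first intronic site (27.6 kb, 250 bp in both lists) and the last one (56.5 kb, 250 bp and 200 bp wide by the Fra-1 and the Fra-2 list) held none, although both factors had a peak there. In place of an exact element, the first held 4 words that differ from it at a single base, among them TGACTAA, and the last held that same word at 2 places. The sequences of both sites above therefore show no capitals.

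Both peaks of the Fra-1 list that had no Fra-2 partner lay in the annotated body of CAV2. One, from 115995051 to 115995201, was 150 bp wide and 65.2 kb from the nearest TSS. The other, from 116035601 to 116035701, was 100 bp wide and 104 kb from a TSS, inside the body and past the 100 kb limit. Neither had an exact element. The first had TTAGTCA and the second had TGATTCA. A TEAD word, GGAATG (TEAD factors carry YAP and TAZ to DNA), lay within 100 bp of the centre of the first, but not wholly inside that peak. A pair of Fra-2 peaks with no Fra-1 partner, from 115851501 to 115851701 and from 115858451 to 115858551, were in reach of CAV2 but lay in introns of TES, which encodes a LIM-domain protein of focal adhesions. They were 0.986 and 4.36 kb from a TSS of TES, and 75.8 and 68.9 kb from one of CAV2.

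At CAV3 (chromosome 3, 8775488 to 8883492, plus strand), the caveolin of muscle, both lists had the same pair of sites, in the intron of the coding transcript. They lay 6.42 and 7.85 kb from a TSS in the Fra-1 list, and 6.42 and 7.87 kb in the Fra-2 list, with centres of the sites 1.43 kb apart. Each held 1 element. The sites were also in introns of SSUH2, an overlapping gene, and a TSS of SSUH2 was nearer to them than one of CAV3, at 4.75 and 3.32 kb for the Fra-1 peaks. The first site was 250 bp wide in both lists, and the second was 200 bp wide as a Fra-1 peak and 150 bp as a Fra-2 peak. In both lists the next peak, from 8671151 to 8671501, was centred 104 kb from the TSS and so fell just outside the limit.

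CAVIN1 (chromosome 17, 40554467 to 40575274, minus strand), the cavin needed for caveolae to form, had the Fra-1 peak nearest to a TSS of the 6 genes. The upstream site, 5.18 kb from the TSS, was 200 bp wide with the same edges in both lists and was intergenic. It held 2 elements, 43 bp apart from start to start, and a TEAD word. Inside the only annotated intron of the gene there were 2 Fra-2 peaks of 150 bp without a Fra-1 partner, 3.40 and 13.5 kb from the TSS. Each held 1 element, 34 and 52 bp from its centre.

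The other CAVIN1 peaks lay near the edge of its reach and close to other genes. Fra-1 and Fra-2 peaks at 97.2 and 97.1 kb, and a Fra-2 peak without a Fra-1 partner at 98.0 kb, were in introns of STAT3, the transcription factor gene, within 0.657 kb of a TSS of it. The Fra-2 peak without a partner held 2 elements, 111 bp apart. On the other side, sites at 95.4 kb (250 bp, same edges in both lists, 1 element) and at 96.9 kb for Fra-1 and 97.0 kb for Fra-2 (no exact element) were centred in exons of ATP6V0A1, which encodes a subunit of the vacuolar proton pump. They were 1.68 kb from a TSS of ATP6V0A1 and, for the second, 0.152 kb for Fra-1 and 0.127 kb for Fra-2. With a peak counted only for the protein-coding gene of the nearest TSS, CAVIN1 kept 1 Fra-1 and 3 Fra-2 peaks, and CAV3 kept none in either list.

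All CAVIN2 peaks (gene at chromosome 2, 192699036 to 192711814, minus strand) lay upstream of the gene, in introns of the antisense non-coding gene CAVIN2-AS1. The nearer shared site, 20.1 kb from the TSS, was 150 bp wide as a Fra-1 peak and 250 bp as a Fra-2 peak. A farther shared site, 47.8 kb away for Fra-1 and 47.7 kb for Fra-2, was 150 and 200 bp wide. Both held 1 element. Fra-2 peaks without a Fra-1 partner lay between them, at 31.7 kb (100 bp, no exact element), and beyond, at 80.4 kb (200 bp, 1 element). The peak at 80.4 kb was nearer to a TSS of TMEFF2, 71.7 kb away.

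CAVIN3 (chromosome 11, 6340176 to 6341762, minus strand), a small gene of 1.59 kb, had a single Fra-2 peak. It was 100 bp wide, the smallest width in the list, lay upstream at 1.79 kb from a TSS, and held 1 element 27 bp from its centre. The nearest Fra-1 peak on the chromosome was 769 kb away, and the next Fra-2 peak 298 kb away.

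Over the 6 genes, 13 of the 15 Fra-1 peaks (86.7%, 95% exact binomial interval 59.5 to 98.3) overlapped the Fra-2 list by 1 bp or more, beside 80.4% of all Fra-1 peaks. In the Fra-2 list 13 of 22 peaks were shared (59.1%, 36.4 to 79.3), beside 61.6% of all Fra-2 peaks. Both shares have intervals that include the value over all peaks. Such intervals cover counting error alone, as if each peak were independent of its neighbours. At 7 of the 13 shared sites the edges were the same in both lists, and centres were at most 50 bp apart. Edges lie on a 50 bp grid, and no such count over all shared peaks is set beside these. Of the 11 sites in a single list, 2 were Fra-1 peaks and 9 Fra-2 peaks. The median width was 200 bp in both lists near these genes, where it was 150 bp over all peaks of either list, and none was wider than 250 bp.

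An AP-1 element was found no more than 100 bp from the centre in 10 of 15 Fra-1 peaks (66.7%, 38.4 to 88.2) and 17 of 22 Fra-2 peaks (77.3%, 54.6 to 92.2). Over all nuclear peaks the shares were 56.8% for Fra-1 and 67.5% for Fra-2, and 3.07% of all windows of 201 bp along the genome held one. Again, both intervals include the value over all peaks. By site, 17 of 24 held an element and 2 held a pair. Elements were in 10 of the 13 shared sites, in neither site with a Fra-1 peak alone and in 7 of the 9 sites with a Fra-2 peak alone. Over all nuclear peaks, 61.1% of shared Fra-1 peaks, 61.5% of shared Fra-2 peaks, 39.1% of Fra-1 peaks without a partner and 77.1% of Fra-2 peaks without a partner held one, so a lower share in unpartnered Fra-1 peaks was also seen over all peaks. The 7 sites without one comprised 5 whose nearest TSS among the 6 genes was of CAV1 or CAV2, 1 at CAVIN1 and 1 at CAVIN2. With 1 mismatch allowed, all 15 Fra-1 and all 22 Fra-2 peaks had a match, but so did 84.8% and 88.3% of all nuclear peaks and 47.1% of genome windows.

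**Figure D3:**
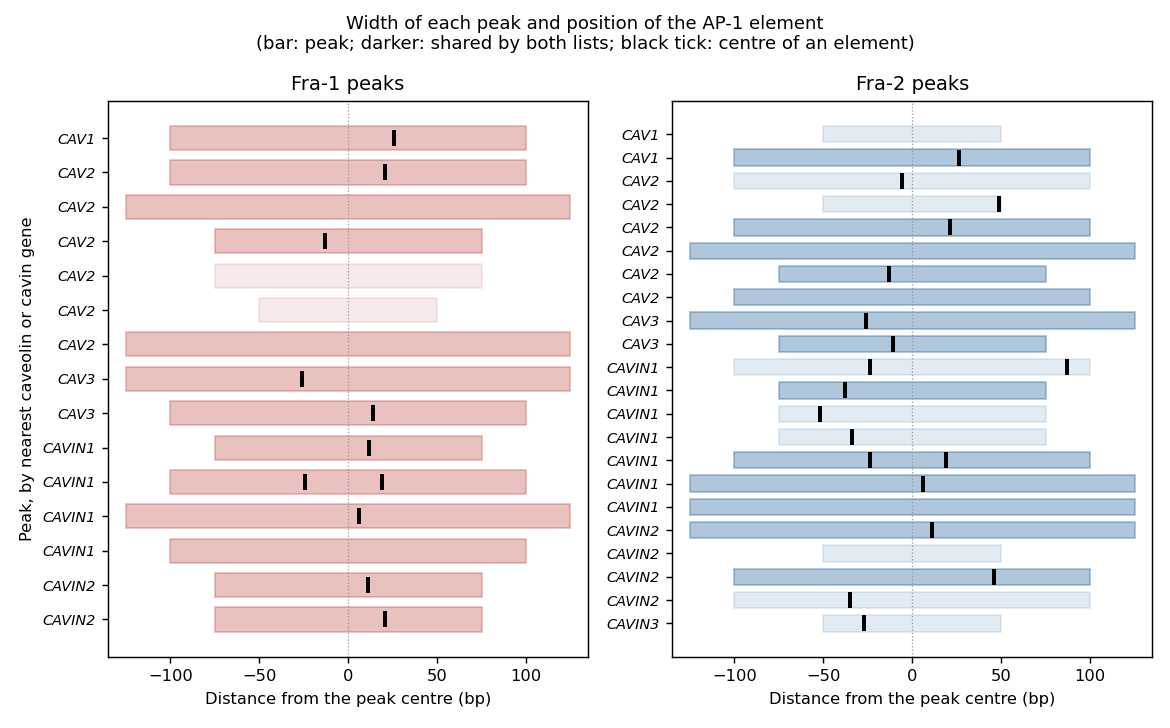
Width of each Fra-1 (left) and Fra-2 (right) peak in bp around its centre, ordered by the nearest of the 6 genes and then by position, with black ticks at the centres of AP-1 elements; darker bars are shared peaks. Elements lie within 26 bp of the centre in Fra-1 peaks and within 87 bp in Fra-2 peaks.

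Distances of elements from peak centres were bounded by the search, which reached 100 bp to each side. No distances over all peaks are set beside them, and elements of shared sites count in each list. In Fra-1 peaks the median distance was 19 bp over 11 elements, with a range of 6 to 26 bp. In Fra-2 peaks it was 26 bp over 19 elements, with a range of 6 to 87 bp, and 18 of the 19 lay wholly inside the peak.

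Most copies of the element near these genes had no peak. The reach of CAV1 held 37 copies, of which 1 lay in a Fra-1 and 1 in a Fra-2 peak, and that of CAV2, which overlaps it, held 66, of which 3 and 4 did. CAV3 had 45 copies with 2 in peaks of each list, and CAVIN2 had 34 with 2 in Fra-1 and 3 in Fra-2 peaks. In the reach of CAVIN1, 4 of 34 copies lay in Fra-1 and 8 in Fra-2 peaks, while CAVIN3 had 33 copies, none of them under a Fra-1 and 1 under a Fra-2 peak. Copies numbered 16.0 to 21.6 per 100 kb in the 6 reaches, beside 16.1 per 100 kb over the nuclear genome. Genome-wide, 1.56% of 459778 copies were covered by a Fra-1 peak and 2.27% by a Fra-2 peak.

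Other consensus words were searched on both strands in the same windows. The TEAD word GGAATG was in 4 of 15 Fra-1 peaks (26.7%, 7.79 to 55.1) and 4 of 22 Fra-2 peaks (18.2%, 5.19 to 40.3), beside 26.3% and 22.8% of all nuclear peaks and 10.7% of genome windows. The distal upstream site of CAV2 held it at 2 places. The RUNX word TGTGGT was in 4 Fra-1 peaks (26.7%, 7.79 to 55.1) and 8 Fra-2 peaks (36.4%, 17.2 to 59.3), beside 17.9% and 17.2% of all nuclear peaks and 13.6% of genome windows. Among the sites without an exact AP-1 element, the first and last intronic sites of CAV2 and the site at CAVIN1 held a RUNX word in both lists. The sites with a Fra-1 peak alone, the Fra-2 peak upstream of CAV1 and the Fra-2 peak between the shared sites of CAVIN2 held none. Sites with an AP-1 element held the RUNX word too. They were the first site of CAV3 in both lists and 4 sites of the Fra-2 list alone. The latter were the deeper intronic site of CAVIN1, the peak 98.0 kb from its TSS and both peaks in TES. To the digits given, the Fra-2 interval for RUNX starts at the share over all peaks. It is 1 of 8 words searched in each list, and was not tested. The E-box CAGGTG was in 2 Fra-1 and 3 Fra-2 peaks (13.3% and 13.6%), beside 11.8% and 12.3% of all nuclear peaks and 14.7% of windows. The SP/KLF word GGGCGG was in 1 peak of each list, the second site of CAV3 (6.67% and 4.55%), beside 4.60% and 5.45% of all nuclear peaks and 2.90% of windows. The cyclic AMP response element core TGACGT, the ETS word CCGGAA and the FOX word TGTTTAC were in no peak. Over all nuclear Fra-1 and Fra-2 peaks their shares were only 3.23% and 3.27% for the first, 3.50% and 3.36% for the ETS word and 5.09% and 4.38% for the FOX word. A count of 0 allows a share of up to 20.0% in 15 Fra-1 peaks and 13.6% in 22 Fra-2 peaks when the limit is set at 3 counts of the total, and of up to 21.8% and 15.4% by the exact binomial interval, so these counts lie within what the shares over all peaks allow.

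**Figure D4:**
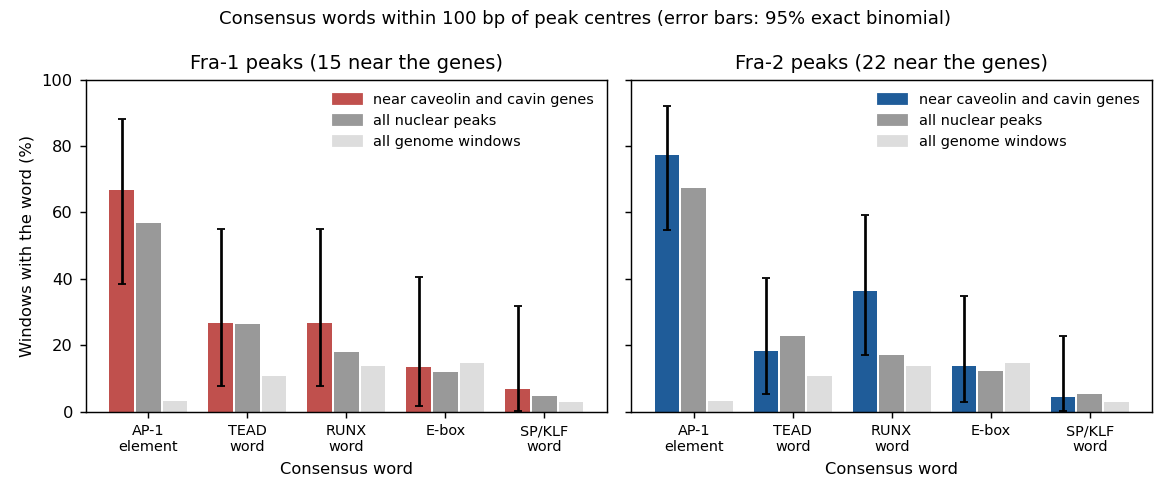
Share of 201 bp windows that hold each consensus word, in percent, for Fra-1 (left) and Fra-2 (right): peaks near the 6 genes (coloured, with 95% exact binomial intervals), all nuclear peaks (dark grey) and all genome windows (light grey). The AP-1 element is in 66.7% and 77.3% of the peaks near the genes, and each coloured interval for it includes the value over all nuclear peaks.

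Other genes of caveolae and their surroundings were taken from a list of 18 chosen by function. Of these, 11 had a Fra-1 peak in reach and 16 a Fra-2 peak, beside 45.3% and 58.6% of all protein-coding genes. All 11 with a Fra-1 peak also had a Fra-2 peak, and 5 had a Fra-2 peak alone. Over all protein-coding genes, 8575 of the 9104 with a Fra-1 peak also had a Fra-2 peak, so having both in reach was general. Peaks of both lists in reach of a gene need not overlap, and at some of the 11 genes none was shared. FLOT1, a flotillin of membrane domains distinct from caveolae, had 7 Fra-1 and 9 Fra-2 peaks, none of the Fra-1 peaks having its nearest coding TSS at FLOT1. EHD1, an ATPase of membrane recycling, had 4 and 7 peaks, the nearest of each list 0.059 kb from a TSS. PACSIN2, a membrane-bending protein of caveolae, had 2 and 5, ROR1, a receptor of the tyrosine kinase family, 2 and 4, and DNM1, a dynamin, 2 and 2. The nearest peak to a TSS of ROR1 was 93.0 kb away for Fra-1 and 42.2 kb for Fra-2. At DNM1 it was 54.3 kb away in both lists, and no peak had its nearest coding TSS at DNM1. EHD2, an ATPase at the neck of caveolae, tied with DNM1 at 2 peaks in each list and came after it by alphabetical order alone, with the nearest Fra-1 peak 0.052 kb and the nearest Fra-2 peak 0.077 kb from a TSS; its distances were picked out after they were seen. CAVIN4, the muscle cavin, and EHD3 had no peak in either list.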

How the data were processed

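Bowtie2 and the build hg19 are named in the submitters' processing notes, without a version or role. How peaks were called and thresholded is not given in the sources used here, nor how input and replicates entered. Files deposited by the authors hold no other value than the start and end of each peak, in bp on a 50 bp grid, with 1 list per antibody. Printed positions are those of the files, width is end minus start, and no nuclear peak passed the end of its GRCh37 chromosome.

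Genes came from GENCODE 44 lifted to GRCh37. The genes and lists were chosen with earlier results of these data known. Shared peaks had at least 1 bp in common. Both strands were searched for elements and words up to 100 bp from each centre, and in consecutive 201 bp windows of the nuclear genome. Protein-coding genes off chromosome Y gave the background. No peak near the 6 genes had over 11.6% recurring words of 10 bases within 1000 bp of its centre. Named genes were the 6 genes, the 5 genes of the functional list with most peaks (ties by alphabetical order), those with none, and neighbours with a nearer TSS. Assignment, overlap and word search were tested on simulated data. The work used samtools 1.23.1, pysam 0.24.0, matplotlib 3.10.9 and scipy 1.17.1 under Python 3.11.15.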

Additional observations from a re-analysis of the deposited data

How the results depend on the processing

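No paired analysis was possible because each antibody has 1 peak list without replicate values, and for the same reason no replicate could be left out. Of 42 alternative values, 30 lay within 1.5 times the reported count or inside the interval of the reported share. With reach cut to the gene body or 10 kb, 3 genes had a Fra-1 peak, and 8 Fra-1 and 10 Fra-2 peaks remained. At 50 kb 14 Fra-2 peaks remained, with the nearest TSS alone 13, and 7 genes of the functional list had a Fra-1 peak. Among peaks at least 200 bp wide, a stand-in for a stricter threshold, 9 Fra-1 and 13 Fra-2 peaks remained, 7 genes of the functional list had a Fra-1 peak, and 100.0% of the Fra-1 peaks were shared (92.0% over all such peaks). With 1 mismatch allowed, 100.0% of peaks in each list held a matching word, beside 84.8% of all nuclear Fra-1 peaks and 88.3% of all nuclear Fra-2 peaks. Fewer peaks or a looser word are what these settings do by construction. Counts from the coding reference transcript and those of the functional list under other settings were chosen after seeing the data. Peaks hold no depth, so weaker binding below the authors' threshold, at CAVIN3 for Fra-1 for example, cannot be seen.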

Other observations

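Some copies of the AP-1 element lay near a TSS without a peak. At CAVIN3 one copy was centred at -71 bp from the TSS of the reference transcript, and the Fra-2 peak of that gene was centred 1749 bp from it. At CAVIN1 a copy 370 bp downstream of the TSS lay 5547 bp from the nearest Fra-1 and 3028 bp from the nearest Fra-2 peak centre. CAV1 had copies 2093, 2484 and 3196 bp downstream of its TSS, and CAV3 had copies 1271, 2608 and 4291 bp downstream, all outside peaks of both lists.

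The bases next to the element varied. Read as TGACTCA, 9 of the 19 distinct elements had a purine before and a pyrimidine after, beside 41.8% of elements in all nuclear Fra-1 peaks and 52.2% in Fra-2 peaks. An A before and a T after occurred in 2 of the 19, the shared sites of CAVIN2, beside 11.7% and 15.4%. No test was made of these shares.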
